A study of Mus musculus with 57 samples.

Results

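The neuronal differentiation genes Tubb3, Dcx, Stmn2, Map2, Elavl3, Elavl4, Neurog2, Neurod1 and Isl1 were followed across all conditions of an RNASeq series of mouse embryonic stem cells (ESCs) differentiating in retinoic acid (RA). They are 9 named genes of the 55450 in the count table, chosen by name, with Ensembl identifiers matched to symbols through GENCODE M21. The cells carried 2 reporters, an EGFP that replaces 1 allele of the neuroectoderm gene Sox1 and an mCherry that reports the endoderm gene FoxA2, and they form a single reporter line, Sox1-EGFP/FoxA2mCherry. Cells were sorted by both colours at D0 (Sox1-FoxA2- alone) and, after 2, 4 or 6 days in N2B27 with 1 uM RA, as populations named Sox1-FoxA2-, Sox1+FoxA2-, Sox1+FoxA2+ and Sox1-FoxA2+ (D2, D4 and D6). Per the study's methods, cells were held overnight in a serum medium with LIF before the exchange to N2B27 with RA. RA is listed at 1 uM for the D0 samples too, and their medium is not stated separately. For the progeny arm, each D2 population positive for at least 1 reporter was replated in a serum medium without LIF but with 1 uM RA and harvested at D4 or D6 without a second sort. This gave 19 conditions of 3 replicates each, 57 libraries in all. Replating, the change of medium and the lack of a sort at harvest cannot be told apart wherever progeny are set against sorted cells. Against D2 cells, the longer time in RA cannot be told apart from these either. Between D0 and D6, time and any change of medium, serum or LIF cannot be told apart. In bulk samples such as these, fewer cells of a type and less RNA per cell cannot be told apart.

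Neurons arise from neural progenitors when proneural basic helix-loop-helix factors such as Neurog2 switch on a cascade in which Neurod1 acts downstream. The newly born neuron then makes its own set of cytoskeletal proteins: Tubb3 is the neuronal β-tubulin, Dcx (doublecortin) and Map2 bind and stabilise microtubules in migrating neurons and in dendrites, and Stmn2 destabilises microtubules in growing neurites. Elavl3 and Elavl4 are neuronal RNA-binding proteins that stabilise target mRNAs, and Isl1 is a LIM homeodomain factor of motor and sensory neurons that is also made in other lineages, among them cardiac progenitors. RA is widely used to drive ESCs towards neural fates.

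Of the 9 genes, 7 had counts and 2 could not be measured. Tubb3 (chr8:123411424-123422015, plus strand, GRCm38) lies wholly inside the span of the protein-coding gene Gm20388, and Neurod1 (chr2:79452521-79456751, minus strand) wholly inside that of Cerkl, and both had 0 counts in all 57 libraries. The same was true of all 1351 protein-coding genes that lie wholly inside other genes, including 749 of 749 whose surrounding genes are all on the opposite strand and 684 of 684 that share no exon base with them, against 331 of 11728 (2.82%) protein-coding genes whose span touches no other gene. The zeros of Tubb3 and Neurod1 therefore carry no information on expression, and no detection limit applies to them. Sox1 itself lies inside Sox1ot and had 0 counts, so the sort on EGFP could not be checked on its transcript. Elavl3 shares 42.3% of its span with Gm49318 on the same strand, where its reads may be lost in the same way, Map2 shares 2.55% with 3 small predicted genes, and Dcx, Stmn2, Elavl4, Neurog2 and Isl1 share none.

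**Figure D1:**
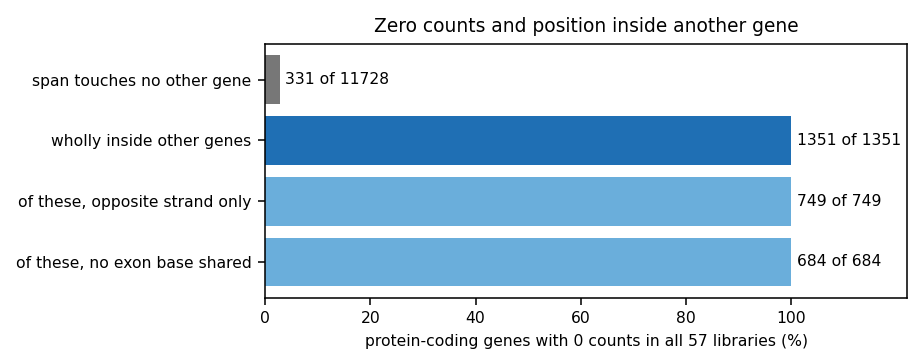
Share of protein-coding genes with 0 counts in all 57 libraries (x axis, %) by position relative to other genes of the annotation. All 1351 genes wholly inside other genes were at 0, against 331 of 11728 whose span touches no other gene.

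The upstream sequences of Map2, Dcx and Elavl4, the 3 genes that passed a test in any comparison, are shown because Neurog2 and Neurod1 bind E-boxes (CANNTG, which reads as the same motif on both strands). RefSeq promoter windows (GRCm38.p6) were matched for 8 of the 9 genes, giving 12 windows, and Stmn2 is not among the genes matched. The stretches printed run from 250 bases before each annotated start up to the start or the first base in an annotated exon of that gene. Exons of other genes were not checked. The stretches read 5′ to 3′ on the gene's strand, in lower case with E-boxes in capitals. They are Map2 at chr1:66175079-66175272 (plus strand), Dcx at chrX:143933312-143933469 (minus strand) and, on the minus strand, a pair of alternative starts of Elavl4, start 1 at chr4:110351912-110352161 and start 2 at chr4:110287528-110287777.
Map2: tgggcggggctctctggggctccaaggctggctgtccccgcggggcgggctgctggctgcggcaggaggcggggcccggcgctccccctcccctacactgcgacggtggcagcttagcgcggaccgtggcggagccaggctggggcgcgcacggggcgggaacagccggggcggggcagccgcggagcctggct
Dcx: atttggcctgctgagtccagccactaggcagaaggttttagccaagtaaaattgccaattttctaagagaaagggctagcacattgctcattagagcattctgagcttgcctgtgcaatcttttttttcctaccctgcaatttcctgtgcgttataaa
Elavl4 start 1: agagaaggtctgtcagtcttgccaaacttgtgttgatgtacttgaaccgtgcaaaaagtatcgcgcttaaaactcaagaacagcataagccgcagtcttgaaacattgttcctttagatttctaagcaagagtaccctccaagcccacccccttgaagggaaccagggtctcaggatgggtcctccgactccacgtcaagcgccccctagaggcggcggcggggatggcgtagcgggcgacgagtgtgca
Elavl4 start 2: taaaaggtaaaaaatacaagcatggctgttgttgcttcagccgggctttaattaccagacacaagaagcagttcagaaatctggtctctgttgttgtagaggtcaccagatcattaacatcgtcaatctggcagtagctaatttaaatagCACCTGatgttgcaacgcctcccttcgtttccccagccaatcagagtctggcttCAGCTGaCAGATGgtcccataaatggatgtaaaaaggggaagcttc
The stretch before Elavl4 start 2 held 3 E-boxes, each with different central bases, and those of Map2, Dcx and Elavl4 start 1 held none. Over the 250 bases before the start, 6 of the 12 windows of these genes held at least 1 E-box, against 66.2% of all 32851 windows, and 12.2% of all windows held 3 or more. These 12 windows are not independent. Elavl4 start 3, not printed, overlaps start 2 and shares its 3 E-boxes, and the 2 Dcx windows overlap as well. Elavl4 start 4, also not printed, held 1.

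Library totals ran from 10170632 to 81845651 counts (median 36694379), and between 14458 and 27832 genes per library had at least 1 count. Of the counts above 0, 80.6% were even numbers, so counts are not independent reads and the floors given below, of 3 counts per library, cover counting error only. Values below are normalised read counts (counts divided by DESeq2 size factors), given for replicates 1, 2 and 3 in that order, with mean ± SD over the 3 libraries. The edgeR tests used a different scaling (TMM factors), so ratios of these means can differ from the fitted log2 fold changes. The study calls its replicates biological, and whether they came from separate cultures is not given in the sources used here, so p-values measure the spread between these libraries. D6 Sox1-FoxA2- replicate 3 was the highest of all 57 libraries for Dcx, Elavl4 and Neurog2. D6 Sox1+FoxA2+ replicate 2 had the fewest genes detected, 14458, and was at 0 for Dcx, Neurog2 and Isl1. Foxa2 transcripts followed the mCherry gate between the single positive populations at D6, at 1478 to 2697 normalised counts in Sox1-FoxA2+ and 20.3 to 131 in Sox1+FoxA2- libraries, whereas D6 Sox1+FoxA2+ libraries held 0 to 728.

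The proneural factor Neurog2 (chr3:127633135-127635631) was close to undetected. Counts were found in 10 of 57 libraries, 10 or more of them in 4, and all libraries were at 0 in 11 of 19 conditions. The highest value was 210.1 normalised counts in D6 Sox1-FoxA2- replicate 3, whose other replicates were at 0. It was followed by 93.9 in D6 Sox1+FoxA2- replicate 1, 42.6 in D2 Sox1+FoxA2- replicate 1 and 38.3 in D4 progeny Sox1+FoxA2+ replicate 1. Every condition with counts had at least 1 library at 0, and the gene passed the filter on low counts in none of the comparisons.

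Among genes of the cytoskeleton, Stmn2 (chr3:8509360-8561606) was detected in every library. Its highest level was in undifferentiated D0 cells, at 8367, 1084 and 6544 normalised counts (5332 ± 3790, n = 3), and its lowest in D6 progeny Sox1-FoxA2+, at 224, 90.4 and 55.7 (123 ± 88.9). Sox1-FoxA2- cells, negative for both reporters, came next, at 2264 ± 664 at D4, 1914 ± 926 at D2 and 1900.0 ± 751 at D6. Map2 (chr1:66175273-66442583), also detected in every library, had its highest mean in D2 Sox1+FoxA2+ cells, where it rested on replicate 3: the libraries held 1573, 2147 and 6196 (3305 ± 2520). D6 Sox1+FoxA2- followed at 3417, 1922 and 3203 (2847 ± 809), and the lowest level was in D6 progeny Sox1+FoxA2-, at 324, 496 and 335 (385 ± 96.6). Dcx (chrX:143855842-143933311) was at 0 in 12 libraries, among them all 3 of D0 and all 3 of D6 Sox1-FoxA2+. It was highest in D6 Sox1-FoxA2- cells, at 71.0, 283 and 2443 (932 ± 1312), where a single library held most of the counts, and next in D4 progeny Sox1+FoxA2+, at 294, 388 and 399 (360.4 ± 57.8), where the libraries lay close together.

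The RNA-binding proteins had their high levels in sorted cells. Elavl4 (chr4:110203722-110351909) was highest in D6 Sox1-FoxA2-, at 880, 397 and 4019 (1765 ± 1967), and in D6 Sox1+FoxA2-, at 1462, 1566 and 1508 (1512 ± 52.1), which had the tighter replicates. Its lowest level was in D4 progeny Sox1-FoxA2+, at 31.1, 102 and 168 (100.2 ± 68.3), and D2 Sox1+FoxA2- replicate 3 was at 0. Elavl3 (chr9:22015005-22052023) was highest in D4 Sox1+FoxA2+, at 268, 193 and 602 (354 ± 218), and in D6 Sox1+FoxA2-, at 226, 266 and 481 (324 ± 137). D2 Sox1+FoxA2+ was lowest, with 25.4 in replicate 1 and 0 in the others (8.48 ± 14.7). Undifferentiated D0 cells held 448, 231 and 153 normalised counts of Elavl3, within the range of the high conditions.

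Isl1 (chr13:116298281-116309689) had its highest condition means in D6 progeny: 126, 89.2 and 189 in D6 progeny Sox1+FoxA2+ (135 ± 50.2) and 154, 117 and 105 in D6 progeny Sox1+FoxA2- (125 ± 25.7). Sorted D6 Sox1+FoxA2+ cells lay close to these in mean (124 ± 115), with replicate 2 at 0. Single libraries of sorted D6 Sox1-FoxA2- and D2 Sox1+FoxA2- cells held more, at 244 and 232. The highest of all 57 libraries was D4 progeny Sox1-FoxA2+ replicate 2, at 254.9. That condition had a mean of 96.5 ± 138 with 1 library at 0, against means of 80.3 in D4 progeny Sox1+FoxA2- and 53.0 in D4 progeny Sox1+FoxA2+. D6 progeny Sox1-FoxA2+ held 32.8, 20.5 and 35.9 (29.7 ± 8.12), below every library of the other progeny of that day. In D6 Sox1-FoxA2+ cells all 3 libraries were at 0, whereas D6 Sox1+FoxA2- held 62.6, 26.9 and 176.

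With the 19 conditions ordered by their mean, none of the 18 neighbouring pairs had libraries that did not overlap, for any of the 7 genes with counts. Levels of different genes can be compared only per length. Per kb of annotated exon, the mean normalised count over the 57 libraries was 202 for Stmn2, 94.0 for Elavl4, 81.4 for Map2, 17.5 for Elavl3, 17.2 for Isl1, 12.5 for Dcx and 3.29 for Neurog2. Per kb of gene span, introns included, Stmn2 again led at 21.6, followed by Isl1 at 5.98, Map2 at 5.01, Elavl4 at 3.42, Elavl3 at 3.26, Neurog2 at 2.93 and Dcx at 2.04. Stmn2 ranked first on both scales, whereas the order of the others depended on the length used.

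**Figure D2:**
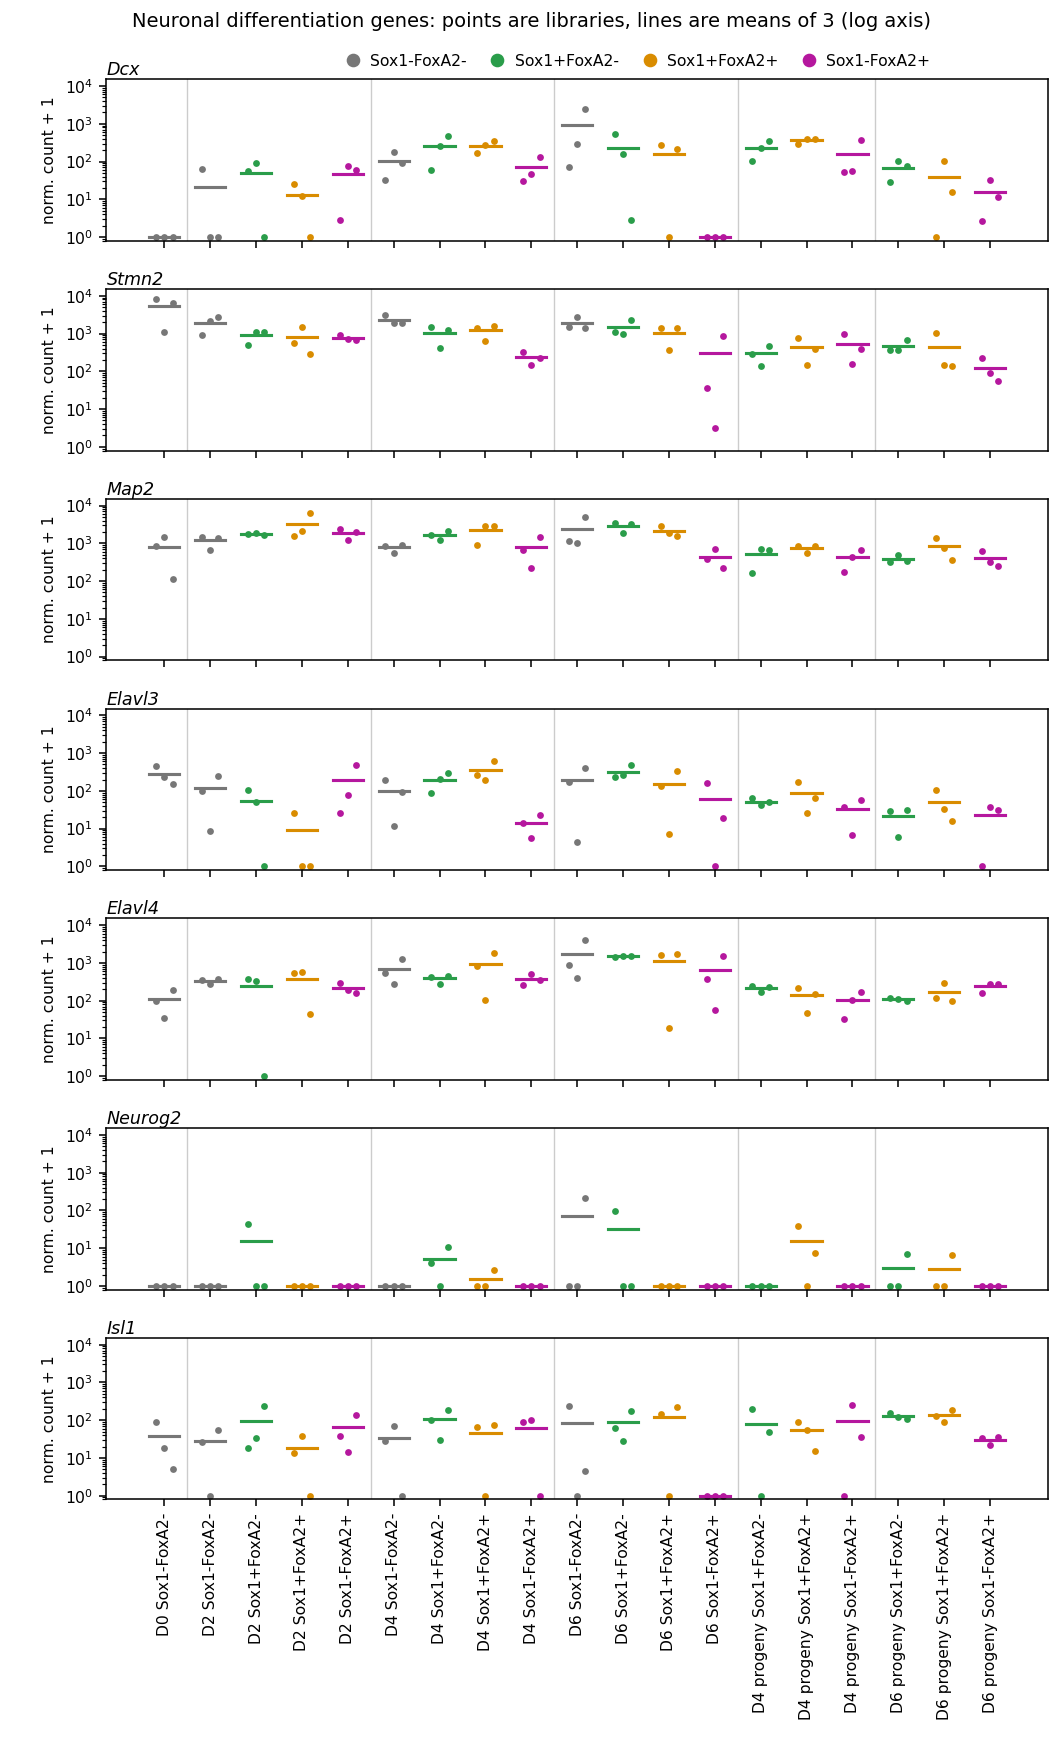
Normalised read count plus 1 (y axis, log scale) of the 7 genes with counts in each of the 57 libraries, by condition (x axis) and coloured by sorted population; points are libraries and lines are means of 3 libraries. All 3 D6 Sox1-FoxA2+ libraries are at 0 for Dcx and Isl1, and D6 Sox1-FoxA2- replicate 3 is highest for Dcx, Elavl4 and Neurog2.

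The genes were tested with edgeR's quasi-likelihood test in 30 comparisons, adjusted by Benjamini-Hochberg over all genes tested, with an adjusted p under 0.05 taken as called. Dcx, Stmn2, Map2, Elavl3, Elavl4 and Isl1 entered all of them, which gave 180 tests, of which 6 were called, in 5 comparisons, and 33 had an unadjusted p under 0.05. The share of all genes tested with an unadjusted p under 0.05 ran from 1.33% to 22.1% between comparisons. DESeq2, used as an alternative, called more of all genes in all 30 comparisons, and its shares are not given here. Map2 accounted for 4 of the calls, Dcx and Elavl4 for 1 each. Comparisons that use the same group share its libraries and are not independent of one another. Overlap between libraries was judged on the normalised counts. The share of all genes without overlap was not counted, so a lack of overlap describes the libraries and is no test. The shares of all genes called, given beside each count, rest on few libraries: leaving out 1 library moved the number of genes called by over 1.5 times in 29 of the 30 comparisons, for example from D2 to D6 in Sox1+FoxA2+ cells, where 88 became 13 to 667.

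At D6, Sox1-FoxA2+ cells held less Map2 than Sox1+FoxA2- cells, and Dcx and Isl1 were at 0 in all 3 Sox1-FoxA2+ libraries. Map2 was at 383, 701 and 218 in D6 Sox1-FoxA2+ (434 ± 246) and at 3417, 1922 and 3203 in D6 Sox1+FoxA2- (2847 ± 809). No library overlapped, and the ratio of the means was 0.152. The change of Map2 was -2.49 on the log2 scale (SE 0.598, 95% interval -3.70 to -1.27), with an adjusted p of 0.022 in edgeR's quasi-likelihood test. Map2 was the 1 gene of the 6 tested that was called, where 1.32% of all 24203 genes tested were called and the median log2 fold change of all genes was -0.30. Dcx held 530.2, 159 and 1.85 in D6 Sox1+FoxA2-, a mean at least 65.0-fold above the floor of the libraries at 0, and was not called (adjusted p = 0.0512, edgeR quasi-likelihood test). The lowest of these is 2 counts, under the floor of 2.77 normalised counts in that library, and the bound was 22.7-fold without replicate 1. Isl1 was at least 25.0-fold above that floor with an adjusted p of 0.349 in the same edgeR test, and 12.6-fold without D6 Sox1+FoxA2- replicate 3. Stmn2 was also lower without overlap, at 35.6, 2.18 and 882 in Sox1-FoxA2+ against 1097, 982 and 2325, and Elavl3 likewise, at 161, 0 and 18.6 against 226, 266 and 481. Neither passed the test, and the libraries of Elavl4 overlapped.

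The Map2 call at D6 depended on single libraries. Its adjusted p in edgeR was 0.0877 without D6 Sox1+FoxA2- replicate 1, 0.081 without D6 Sox1-FoxA2+ replicate 1, 0.0669 without D6 Sox1-FoxA2+ replicate 3 and 0.0544 without D6 Sox1+FoxA2- replicate 3, where Dcx was called instead (adjusted p = 0.0183). With the replicate number as a block, which the libraries' shared deviations warrant here, both Map2 (adjusted p = 0.0213, edgeR) and Dcx (adjusted p = 0.0408) were called. Fewer genes were detected in D6 Sox1-FoxA2+ libraries (20171, 16459 and 17997) than in D6 Sox1+FoxA2- libraries (27832, 21114 and 22859), and the 11 visceral and parietal endoderm markers summed to between 772690 and 1662770 normalised counts against 8999.8 to 13042, with none of them at 0 in either group. The part of either in the difference was not tested.

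Sox1+FoxA2+ cells at D6 lay with Sox1+FoxA2- cells for Map2, at 2832, 1841 and 1566 (2080 ± 666), and above every Sox1-FoxA2+ library. The log2 difference from Sox1-FoxA2+ was 1.90 (95% interval 0.71 to 3.09, adjusted p = 0.224, edgeR), and that from Sox1+FoxA2- was -0.59 (-1.74 to 0.56). No gene of the 6 was called in either comparison, which called 0.0909% and 0.0496% of all genes (22 and 12 genes, and 10 to 280 and 6 to 62 on leaving out 1 library). Against Sox1-FoxA2+, the genes Dcx, Map2 and Isl1 had an unadjusted p under 0.05, as had 14.2% of all genes tested, and were called by DESeq2. Against Sox1+FoxA2-, none had an unadjusted p under 0.05 and DESeq2 called none. Dcx against Sox1-FoxA2+ was called by edgeR once D6 Sox1+FoxA2+ replicate 2 was left out, and Stmn2 once D6 Sox1-FoxA2+ replicate 3 was.

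At D2 the Map2 levels of Sox1-FoxA2+ (2383, 1258 and 2038) and Sox1+FoxA2- cells (1772, 1915 and 1706) overlapped, with a log2 difference of 0.09 (95% interval -0.81 to 0.98), and edgeR called no gene of the 6, none had an unadjusted p under 0.05 and DESeq2 called none. At this day 0.00491% of all genes were called. At D4 Stmn2 was lower in Sox1-FoxA2+ cells without overlap, at 324, 145 and 225 against 1497, 417 and 1216, a log2 difference of -2.13 (95% interval -3.35 to -0.90) that edgeR did not call (adjusted p = 0.222). Elavl3 was also lower without overlap at D4, at 13.0, 4.51 and 22.2 against 89.5, 202 and 288 (log2 difference -3.79, 95% interval -7.81 to 0.24, adjusted p = 0.881, edgeR), whereas Map2 overlapped. No gene was called at D4, where 0.266% of all genes were. Stmn2 alone had an unadjusted p under 0.05, as had 5.45% of all genes tested, and DESeq2 called Stmn2 and Elavl3. Sox1+FoxA2- and Sox1-FoxA2- cells showed no called difference in these genes at D4 or D6 in edgeR or in DESeq2, none of the 6 had an unadjusted p under 0.05, and 0.0% of all genes were called on both days (1150 genes at D4 and 785 at D6 had an unadjusted p under 0.05).

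Between days, cells negative for both reporters gained Dcx and Elavl4. Elavl4 rose from 99.5, 33.6 and 190.2 in D0 Sox1-FoxA2- cells (108 ± 78.6) to 880, 397 and 4019 at D6 (1765 ± 1967), without overlap. The ratio of the means was 16.4 and the log2 fold change 4.03 (SE 0.846, 95% interval 2.27 to 5.80, adjusted p = 0.0099, edgeR quasi-likelihood test). Dcx rose from 0 in all 3 libraries at D0 to 71.0, 283 and 2443, a mean at least 235-fold above the D0 floor of 3.97 normalised counts (adjusted p = 0.0319, edgeR). These were 2 of the 6 genes tested, beside 4.62% of all genes, whose median log2 fold change was 0.30. Stmn2 moved the other way in means, from 5332 to 1900, with overlapping libraries and a log2 change of -1.50 that edgeR did not call (adjusted p = 0.189), and Map2, Elavl3 and Isl1 overlapped as well. The 8 pluripotency markers summed to 46403 to 108549 normalised counts in D0 libraries and 19869 to 26389 in D6 Sox1-FoxA2- libraries, and the 10 mesenchyme and smooth muscle markers to 219 to 1090.3 and 11523 to 25889, with Tagln and Postn at 0 at D0. Their part in the change was not tested.

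Both rises leaned on D6 Sox1-FoxA2- replicate 3. Without it the log2 fold change of Elavl4 was 2.59 at a ratio of 5.92 (adjusted p = 0.15, edgeR) and the bound for Dcx 44.6-fold (adjusted p = 0.161), and neither was called. Without D0 replicate 3 the ratio of Elavl4 was 26.5. The Dcx call was also lost without any 1 of the D0 replicates 1, 2 and 3 (adjusted p = 0.127, 0.11 and 0.1, edgeR). Elavl4 kept an adjusted p under 0.05 in the other 5 of 6 fits that leave out 1 library.

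From D2 to D6 no gene of the 6 was called by edgeR in any sorted population. In Sox1-FoxA2+ cells Map2 went from 2383, 1258 and 2038 to 383, 701 and 218, without overlap (log2 change -2.16, 95% interval -3.51 to -0.82, adjusted p = 0.0727, edgeR), beside 2.91% of all genes called. Dcx, Map2 and Isl1 had an unadjusted p under 0.05 there, as had 18.6% of all genes tested. DESeq2 called all 3 of them, and edgeR called Stmn2 without D6 Sox1-FoxA2+ replicate 3. In Sox1+FoxA2- cells Elavl4 went from 377, 337 and 0 to 1462, 1566 and 1508, without overlap. Map2 went from 1772, 1915 and 1706 to 3417, 1922 and 3203, where 1922 lay just above 1915. With TMM factors over the 57 libraries in place of size factors, the Map2 libraries overlapped. The log2 change of Elavl4 was 2.37 (95% interval 0.30 to 4.45), the sole one of the 6 with an unadjusted p under 0.05, which 15.9% of all genes had. Neither edgeR (adjusted p = 0.274) nor DESeq2 called Elavl4, beside 0.165% of all genes called by edgeR. In Sox1-FoxA2- cells Dcx (5.44) and Elavl4 (2.34) had an unadjusted p under 0.05, as had 6.83% of all genes, without an edgeR or DESeq2 call, beside 0.0188% of all genes called. Dcx went from 61.2, 0 and 0 to 71.0, 283 and 2443, and Elavl4 from between 270 and 370 to 880, 397 and 4019. D6 replicate 3 was by far the highest for both. In Sox1+FoxA2+ cells none had an unadjusted p under 0.05 and DESeq2 called none, beside 0.36%.

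D6 progeny of both single positive populations held less Map2 than D2 libraries of the same sorted population. Whether those D2 libraries and the replated cells came from the same sorts is not given in the sources used here. In the Sox1+FoxA2- line of descent Map2 fell from 1772, 1915 and 1706 at D2 to 324, 496 and 335 in D6 progeny, a ratio of means of 0.214 (log2 change -2.17, SE 0.468, 95% interval -3.13 to -1.21, adjusted p = 0.00596, edgeR quasi-likelihood test). In that of Sox1-FoxA2+ cells it fell from 2383, 1258 and 2038 to 618, 322 and 258, a ratio of 0.211 (log2 change -2.24, SE 0.655, 95% interval -3.59 to -0.90, adjusted p = 0.0413, edgeR). In that of Sox1+FoxA2+ cells it went from 1573, 2147 and 6196 to 1374, 766 and 361, also without overlap, at a ratio of 0.252 that edgeR did not call (log2 change -1.99, 95% interval -3.15 to -0.83, adjusted p = 0.0646) and DESeq2 did. Without D2 Sox1+FoxA2+ replicate 3 that ratio was 0.448 and the log2 change -1.29 (adjusted p = 0.44, edgeR). Map2 was the 1 called gene of 6 in each of the first pair of comparisons, beside 3.56% and 5.26% of all genes, and no gene was called in the Sox1+FoxA2+ comparison, beside 1.97%. In the Sox1-FoxA2+ comparison the call was lost on leaving out any library, with adjusted p of 0.161, 0.0524 and 0.0917 without D2 replicates 1, 2 and 3 and of 0.051, 0.185 and 0.204 without D6 progeny replicates 1, 2 and 3 (edgeR). In the Sox1+FoxA2- comparison it was lost only without D6 progeny replicate 1 (adjusted p = 0.0503, edgeR).

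The difference between these falls was itself tested. The change of Map2 from D2 to D6 progeny in Sox1+FoxA2- cells differed from that in Sox1-FoxA2+ cells by 0.04 (95% interval -1.42 to 1.49) on the log2 scale. The change in Sox1+FoxA2+ cells differed from that in Sox1-FoxA2+ cells by 0.24 (-1.21 to 1.70). No gene of the 6 was called by edgeR or DESeq2 in these comparisons and none had an unadjusted p under 0.05, beside 0.208% and 0.00378% of all genes called. Stmn2 was lower in Sox1-FoxA2+ D6 progeny than at D2 without overlap, at 224, 90.4 and 55.7 against 896, 723 and 679, with an adjusted p of 0.247 in edgeR.

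By D4 of the progeny arm Map2 was already at 167, 717 and 648 in Sox1+FoxA2-, 856, 553 and 840 in Sox1+FoxA2+ and 169, 446 and 665 in Sox1-FoxA2+ progeny, every library below the D2 libraries of its own population. Between D4 and D6 progeny no gene of the 6 was called by edgeR or DESeq2 in any population and none had an unadjusted p under 0.05. Of all genes, 0.0178% were called in Sox1-FoxA2+ progeny, 0.0% in Sox1+FoxA2- progeny and 0.0% in Sox1+FoxA2+ progeny (833 and 324 genes with an unadjusted p under 0.05 in the latter). The log2 changes of Map2 were -0.12, -0.46 and 0.15 in that order. Dcx went from 53.4, 56.4 and 369 to 1.72, 30.8 and 10.8 in Sox1-FoxA2+ progeny and from 294, 388 and 399 to 0, 103 and 15.1 in Sox1+FoxA2+ progeny, both without overlap and with adjusted p of 1.0 in edgeR.

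**Figure D3:**
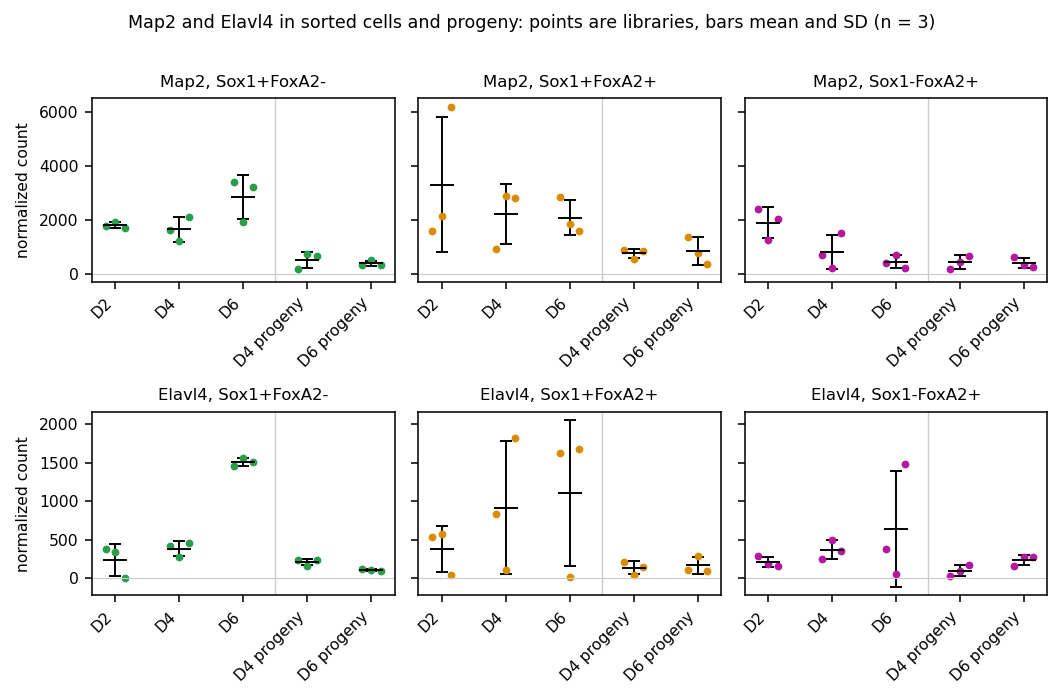
Normalised read counts (y axis) of Map2 (top) and Elavl4 (bottom) at D2, D4 and D6 in sorted cells and at D4 and D6 in progeny (x axis) for 3 populations; points are libraries and bars are mean and SD (n = 3). Map2 in Sox1+FoxA2- cells was at 1922 to 3417 in D6 sorted libraries and at 324 to 496 in D6 progeny libraries.

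Set against sorted cells of the same day, D6 progeny of Sox1+FoxA2- cells were lower in Map2, and the other RNA-binding and cytoskeletal genes lay in the same direction. Map2 was at 324, 496 and 335 in progeny and at 3417, 1922 and 3203 in sorted D6 Sox1+FoxA2- cells, a ratio of means of 0.135 (log2 change -2.50, SE 0.474, 95% interval -3.48 to -1.53, adjusted p = 0.00162, edgeR quasi-likelihood test). This call held in all 6 edgeR fits that leave out 1 library and under all 5 other settings tried. Scaled by TMM factors, the Map2 means were 459 in progeny and 2734 in sorted cells, a smaller fall than on size factors. Elavl4, the RNA-binding protein, was at 116, 108 and 98.4 against 1462, 1566 and 1508, a ratio of 0.0712 (log2 change -3.45, SE 1.06, 95% interval -5.63 to -1.28). No library overlapped, and its adjusted p was 0.0508 in edgeR, outside the threshold. Leaving out 1 library gave an adjusted p of 0.0931 to 0.208 in edgeR, with a call in 0 of 6 fits. Elavl3 was at 28.0, 4.99 and 30.7 against 226, 266 and 481 (ratio 0.0655, adjusted p = 0.196, edgeR) and Stmn2 at 374, 366 and 676 against 1097, 982 and 2325 (ratio 0.321, adjusted p = 0.193, edgeR), again without overlap. Dcx overlapped between the groups, and Isl1 had the opposite sign (0.90, 95% interval -2.52 to 4.32).

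Map2 was thus 1 called gene of 6 in this comparison, in which 6.01% of all 24309 genes were called and the median log2 fold change of all genes was -0.30. DESeq2, and edgeR fitted on these groups alone, called Map2, Stmn2, Elavl3 and Elavl4. The 10 mesenchyme and smooth muscle markers summed to between 70489 and 115635 normalised counts in D6 progeny Sox1+FoxA2- libraries and between 1711 and 3908 in sorted D6 Sox1+FoxA2- libraries, with none of them at 0 in either group. The 12 neural progenitor markers summed to 16979 to 28476 and 9263 to 18798, with Sox2, itself inside another gene, at 0. The part of these cell types in the change was not tested.

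The corresponding contrasts in the other populations were smaller for Map2. Sox1-FoxA2+ cells were at 383, 701 and 218 when sorted at D6 and at 618, 322 and 258 as D6 progeny (log2 change -0.08, 95% interval -1.37 to 1.21), and Sox1+FoxA2+ cells at 2832, 1841 and 1566 and at 1374, 766 and 361 (-1.11, 95% interval -2.23 to 0.02, adjusted p = 0.422, edgeR). These Sox1+FoxA2+ libraries did not overlap on size factors but did with TMM factors over the 57 libraries. Neither comparison called any of the 6 genes in edgeR or DESeq2, beside 0.46% and 1.28% of all genes. In the first, Dcx and Isl1, at 0 in the sorted libraries, had an unadjusted p under 0.05, as had 10.7% of all genes, and in the second none of the 6 had. The change of Map2 from sorted cells to progeny differed between Sox1+FoxA2- and Sox1-FoxA2+ by -2.63 on the log2 scale (SE 0.733, 95% interval -4.11 to -1.15), which edgeR did not call (adjusted p = 0.353) and DESeq2 did. No gene of the 6 was called by edgeR in this test of the difference, in which 0.0113% of all genes were called. Dcx, Map2 and Isl1 had an unadjusted p under 0.05 in it, as had 9.99% of all genes tested.

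**Figure D4:**
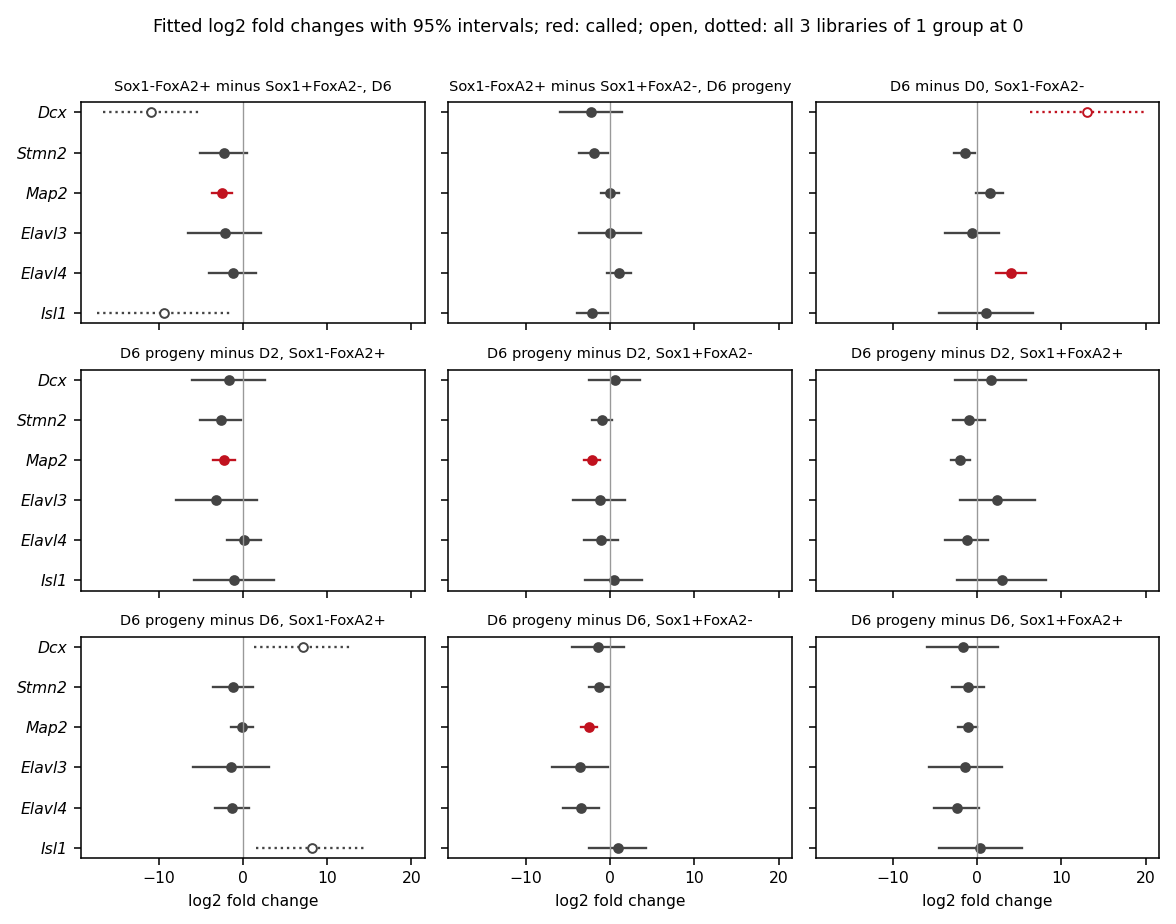
Fitted log2 fold changes (x axis) of the 6 tested genes with 95% intervals in 9 comparisons, first group minus second; red marks an adjusted p under 0.05, and open points with dotted lines mark genes at 0 in all 3 libraries of 1 group, whose fitted value depends on the prior count and is no bound. Map2 is called in 4 panels, and Dcx and Elavl4 in that of D6 against D0.

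Among D6 progeny, Isl1 was lower in Sox1-FoxA2+ than in both Sox1+ populations, and Stmn2 lower than in Sox1+FoxA2-, without overlap and without passing the test. Isl1 was at 32.8, 20.5 and 35.9 in Sox1-FoxA2+ progeny, against 154, 117 and 105 in Sox1+FoxA2- progeny (log2 difference -2.12, 95% interval -3.97 to -0.28, adjusted p = 0.2, edgeR) and 126, 89.2 and 189 in Sox1+FoxA2+ progeny, with no overlap in either comparison. The log2 difference between Sox1+FoxA2+ and Sox1-FoxA2+ progeny was 2.17 (95% interval 0.32 to 4.02, adjusted p = 0.207, edgeR). Stmn2 was at 224, 90.4 and 55.7 in Sox1-FoxA2+ and at 374, 366 and 676 in Sox1+FoxA2- progeny (-1.95, 95% interval -3.63 to -0.26, adjusted p = 0.198, edgeR). Sox1+FoxA2+ progeny, at 1027, 146 and 136, overlapped both of these for Stmn2, and the Isl1 levels of the Sox1+ populations overlapped each other. Both genes had an unadjusted p under 0.05 in both comparisons with Sox1-FoxA2+ progeny, of which DESeq2 called Isl1, whereas edgeR called none of the 6, beside 6.91% and 4.63% of all genes. Of all genes, 17.3% and 16.5% had an unadjusted p under 0.05 in these comparisons. Map2 did not separate the single positive populations at this point (0.01, 95% interval -1.02 to 1.05). The 8 cardiac and pharyngeal markers, given because Isl1 is also made in cardiac progenitors, summed to 536 to 744 normalised counts in Sox1+FoxA2-, 538 to 789 in Sox1+FoxA2+ and 668 to 1064 in Sox1-FoxA2+ progeny, where Hand2 was at 0. Their part in the Isl1 levels was not tested.

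In the remaining progeny comparisons no gene of the 6 was called by edgeR or DESeq2 and none had an unadjusted p under 0.05. Of all genes, 0.18% were called between D6 progeny of Sox1+FoxA2+ and Sox1+FoxA2- cells, 1.97% between D4 progeny of Sox1-FoxA2+ and Sox1+FoxA2- cells, 0.792% between D4 progeny of Sox1+FoxA2+ and Sox1-FoxA2+ cells and 0.00483% between D4 progeny of Sox1+FoxA2+ and Sox1+FoxA2- cells. The largest of these differences for Map2 was 1.04 (95% interval -0.01 to 2.09) between D6 progeny of Sox1+FoxA2+ cells, at 1374, 766 and 361, and of Sox1+FoxA2- cells, at 324, 496 and 335.

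Other neuronal genes were counted in 6 lists of 117 genes: proneural and neuronal transcription factors, neuron subtype genes (mostly transcription factors, with the acetylcholine genes Chat and Slc18a3), cytoskeleton, RNA-binding proteins, synapse and transmitter genes, and axon adhesion and guidance. Of these, 4 lie wholly inside another gene (Neurog3, Slc18a3, Nefl and Gng3) and could not be measured. At D6, Sox1-FoxA2+ and Sox1+FoxA2- cells differed in 1 of 105 tested (0.952%, below the 1.32% of all genes), the RNA-binding protein Msi2, lower in Sox1-FoxA2+ cells (9770.0 ± 1883 against 31585 ± 4988, log2 difference -1.54, adjusted p = 0.0214, edgeR). The median of the 105 was -1.36, against -0.30 for all genes. No listed gene was called without D6 Sox1+FoxA2- replicate 1 (edgeR), and 5 were without D6 Sox1-FoxA2+ replicate 3, all lower in Sox1-FoxA2+ cells, and DESeq2 called 17, all lower.

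In D6 progeny of Sox1+FoxA2- cells, against sorted D6 cells, 13 of 107 listed genes fell and 3 rose, beside 6.01% of all genes called. Genes that fell included Rbfox3, the RNA-binding protein known as NeuN (151 ± 127 against 3623 ± 1067, log2 change -4.29), the neuronal factor Myt1l (108 ± 57.2 against 1946 ± 1131, -3.82), the netrin receptor Dcc (-3.29) and Elavl2 (398 ± 65.3 against 1659 ± 91.0, -1.71), a paralogue of Elavl3 and Elavl4. Those that rose were the neurofilament gene Nefm (1892 ± 210.5 against 506 ± 154, 2.26), Dpysl3 (1.36) and the transcription factor Gata3 (2.74), of which Gata3 is also made outside neurons. Of 9 tested repressors of neuronal genes, Rest, which represses them in other cells, rose (10119 ± 747 against 6362 ± 983, log2 change 1.04, adjusted p = 0.0494, edgeR), and Rcor2, a co-repressor that works with it, fell (522 ± 317 against 2060 ± 520, log2 change -1.65, adjusted p = 0.0293, edgeR). Fewer listed genes were called with a library less: 10, 9 and 10 without D6 Sox1+FoxA2- replicates 1, 2 and 3, and 5, 7 and 12 without D6 progeny replicates 1, 2 and 3. Of these, none rose without D6 replicate 2 or without D6 progeny replicate 1 or 2.

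From D0 to D6 in Sox1-FoxA2- cells 8 of 101 listed genes rose and 1 fell (8.91%, against 4.62% of all genes). Ebf3, a transcription factor of differentiating neurons, rose from 19.5 ± 31.7 to 2168 ± 2073 (log2 fold change 6.61), the splicing factor Rbfox1 from 737 ± 329 to 4877 ± 3640 (2.69) and Nefm from 211 ± 156 to 1641 ± 474 (2.89). The heavy neurofilament gene Nefh fell from 4874 ± 1256 to 1461 ± 415 (-1.76). Rest fell from 26318 ± 3036 to 7088 ± 648 (log2 change -1.92, adjusted p = 0.000111, edgeR), as did Rcor2 (-1.21, adjusted p = 0.0397), whereas the co-repressor Rcor1 rose (1.17, adjusted p = 0.0489). Without D6 Sox1-FoxA2- replicate 3 a single listed gene was called, and it fell. The count was 4, 14 and 4 without D0 replicates 1, 2 and 3 and 5 without D6 replicate 1.

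Between D6 progeny of Sox1-FoxA2+ and Sox1+FoxA2- cells 11 of 99 listed genes were lower and 2 higher in the former (13.1%, against 6.91% of all genes). Lower were Sox11, a factor of immature neurons (580 ± 210 against 5134 ± 783, log2 difference -3.19), the growth cone protein Crmp1 (93.1 ± 31.4 against 1172 ± 323, -3.70), Nefm (-3.72), Uchl1 (-2.27), the synaptic vesicle protein Syt1 (-2.09) and the glutamate receptor subunit Gria2 (-3.43). Higher were the adhesion and guidance genes Nrcam (4291 ± 1822 against 454 ± 310, 3.18) and Robo2 (2.64), while Unc5c, a netrin receptor of the same list, was lower (657 ± 365 against 3802 ± 2120, -2.59). From D2 to D6 progeny, 10 of 100 listed genes fell and 3 rose in Sox1-FoxA2+ cells (13.0%, against 5.26% of all genes), and 7 of 107 fell and 5 rose in Sox1+FoxA2- cells (11.2%, against 3.56%). The 13 calls in Sox1-FoxA2+ cells came to 7 and 8 without D6 progeny replicates 2 and 3, and the 12 in Sox1+FoxA2- cells to 6 without D2 replicate 1, 6 without D6 progeny replicate 1 and 7 without D6 progeny replicate 2. Nefh fell in both (log2 changes -3.79 and -2.82), as did Nfasc (-4.14 and -3.12), a cell adhesion protein of the axon initial segment, and the secretory granule gene Chga (-6.03 and -3.97). Nrcam (3.52) and Robo2 (2.41) were among those that rose in the former, and Sox11 (2.30), Gata3 (4.66) and the growth cone gene Gap43 (3.04) among those that rose in the latter.

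**Figure D5:**
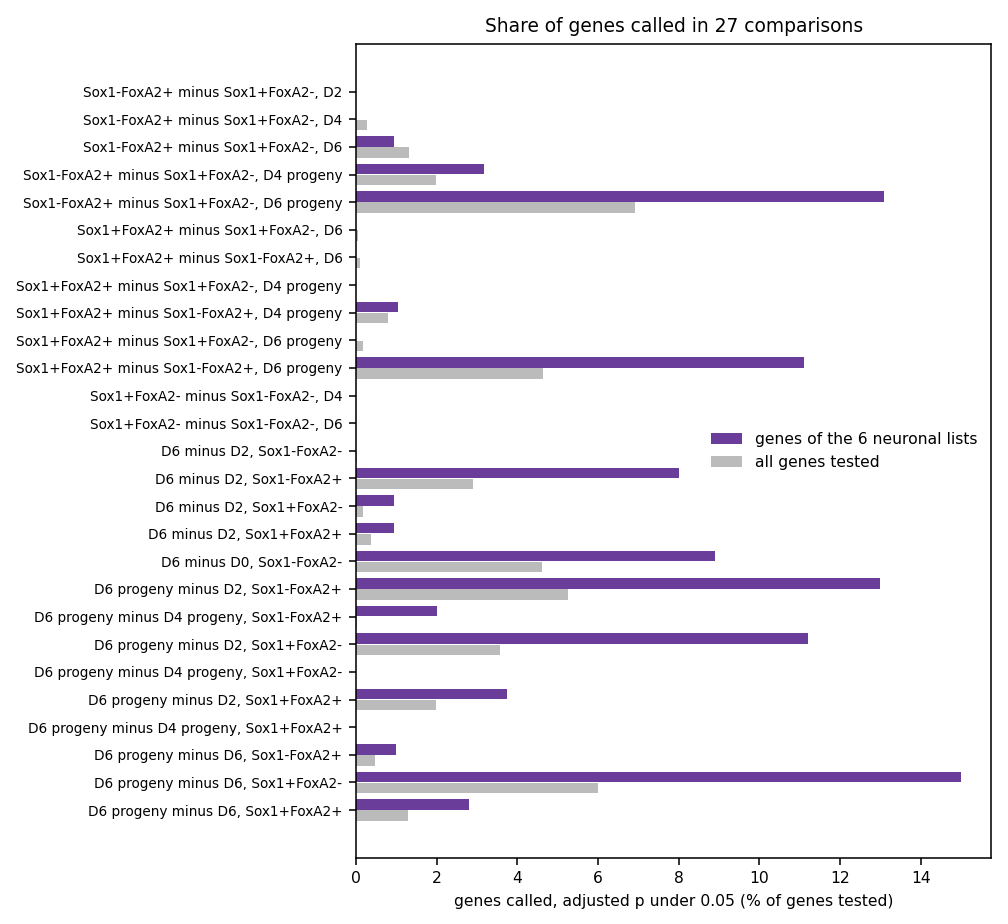
Share of genes called at an adjusted p under 0.05 (x axis, % of genes tested) in 27 comparisons (y axis), for the genes of the 6 neuronal lists (purple) and for all genes tested (grey). The share of listed genes was 13.1% between D6 progeny of Sox1-FoxA2+ and Sox1+FoxA2- cells, where 6.91% of all genes were called, and was higher still in D6 progeny against sorted D6 Sox1+FoxA2- cells (16 of 107 genes).

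The 7 genes with counts did not share a pattern over the conditions. Over the 19 condition means of log2 normalised counts, Pearson's r between pairs of them ran from -0.237 (Elavl4 and Isl1) to 0.595 (Stmn2 and Elavl3). Among 14267 protein-coding genes with a mean of at least 50 normalised counts, those most like Map2 were Rfx3 (r = 0.934), Mpped1 (0.902) and Ccdc171 (0.891), and those most like Stmn2 were led by Arl14epl (0.926). The closest to Dcx were Bcl2 (0.821), Aldh1a7 (0.820) and Sox11 (0.818), and the closest to Elavl4, Elavl3 and Neurog2 were Dnah6 (0.864), Mcf2 (0.847) and Rab40b (0.755). These are descriptions over 19 conditions that share their sorting days and media, and the genes named are the highest of a large number compared.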

How the data were processed

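RNASeq libraries were made by the authors from sorted cells or replated progeny with the SMART-Seq Stranded Kit, without molecular identifiers. Per the labels and the study's methods, reads were aligned with STAR to the GENCODE M21 mouse genome (GRCm38), processed with SAMtools and assigned with featureCounts; the versions and counting settings are not given in the sources used here. The authors deposited raw counts per gene, not normalised, for 55450 genes; 92 further lines naming no annotated gene held 0 counts and were left out. All 684 protein-coding genes inside another gene with no shared exon base were at 0, and so were all 749 inside genes of the opposite strand only. This is what counting over whole gene spans without strand, dropping reads that touch more than 1 gene, would give; levels of overlapping genes are therefore uncertain and intron reads may be included.

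Counts were tested with edgeR 4.0.16 in R 4.3.3 (glmQLFit with robust estimation, TMM, filterByExpr with a minimum count of 10 and minimum total of 15, prior count 0.125 for fold changes), 2-sided, with Benjamini-Hochberg adjustment over all genes tested. Standard errors are the log2 fold change divided by the square root of F, with 95% intervals. Populations of a day and arm shared a fit, as did the days and arms of a population. Levels are counts divided by size factors of DESeq2 1.42.0, and ratios are of group means. Scripts were tested on simulated data. Where all libraries of a group were at 0, folds were computed against 3 counts per library, averaged over the group. Alternatives were the DESeq2 Wald test, RLE factors, no filter, the replicate number as a block, a fit of the compared groups alone and leaving out each library. The replicate numbers were checked by correlating deviations from group means over 5000 genes: correlations ran from -0.347 to 0.618, and all 3 exceeded 0.1 in 10 of 27 comparisons, where the numbers were taken to pair the libraries.

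The genes and gene lists were chosen with earlier results of these data known. Named list genes are among the 3 per list with the smallest adjusted p of those called; those of comparisons other than D6 progeny contrasts were picked in the same way after values were seen. Figures used Python 3.11.15, pandas 2.3.3 and matplotlib 3.10.9. A few genes that the naming rules select are not reported here.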

Additional observations from a re-analysis of the deposited data

How the results depend on the processing

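Leaving out a library changed the number of the 6 genes called by edgeR, from 1 to between 0 and 1 for Sox1-FoxA2+ against Sox1+FoxA2- cells at D6, from 0 to between 0 and 1 for Sox1+FoxA2+ against Sox1-FoxA2+ cells at D6 and for D2 to D6 in Sox1-FoxA2+ cells, from 2 to between 0 and 2 for D0 to D6, and from 1 to 0 (Sox1-FoxA2+) or to between 0 and 1 (Sox1+FoxA2-) for D2 to D6 progeny. The number of listed neuronal genes called, an alternative added after seeing the data, then ran from 0 to 5 (Sox1-FoxA2+ against Sox1+FoxA2-, D6), 9 to 17 (same, D6 progeny), 1 to 14 (D0 to D6), 7 to 11 (D2 to D6 progeny, Sox1-FoxA2+), 6 to 11 (same, Sox1+FoxA2-) and 5 to 12 (D6 progeny against D6). DESeq2's Wald test called more of the 6: 2 in Sox1-FoxA2+ against Sox1+FoxA2- cells at D4, 3 at D6 and 1 in D6 progeny; 3 and 1 in Sox1+FoxA2+ against Sox1-FoxA2+ cells at D6 and in D6 progeny; 3 from D2 to D6 in Sox1-FoxA2+ cells; 1 (Map2) in Sox1+FoxA2+ progeny against D2; 4 in D6 progeny against D6 Sox1+FoxA2- cells; and 1 (Map2) in the test of whether that change differed between populations. DESeq2 called more of all genes in all 30 comparisons, by over 1.5 times in each. Of the listed genes it called 17 at D6, 20 in D6 progeny, 23 from D0 to D6, 22 from D2 to D6 progeny in Sox1+FoxA2- cells and 27 in D6 progeny against D6. Without the filter on low counts, edgeR called 2 of the 6 in Sox1-FoxA2+ against Sox1+FoxA2- cells at D6 and 1 (Stmn2) in D6 progeny, 2 and 1 in Sox1+FoxA2+ against Sox1-FoxA2+ cells, 1 (Dcx) from D2 to D6 in Sox1-FoxA2- cells, 1 (Map2) in Sox1-FoxA2+ cells and 2 (Map2, Elavl4) in D6 progeny against D6, and 7, 19, 19 and 27 listed genes at D6, from D0 to D6, from D2 to D6 progeny in Sox1+FoxA2- cells and in D6 progeny against D6. Only the groups compared gave 1 gene (Dcx) from D0 to D6, 2 (Map2, Stmn2) from D2 to D6 progeny in Sox1-FoxA2+ cells and 4 in D6 progeny against D6, and 5, 4 and 24 listed genes at D6, from D0 to D6 and in D6 progeny against D6. RLE factors gave 2 (Map2, Elavl4) in D6 progeny against D6 and 2 listed genes at D6. RLE moved the median log2 fold change of all genes by up to 0.24 (D2 to D6, Sox1+FoxA2-) and -0.28 (D6 progeny against D6, Sox1+FoxA2-). Without the filter more of all genes were called in all 30 comparisons, by over 1.5 times in 27. Fits of the compared groups alone called more of all genes in 18 comparisons and fewer in 11. Shares of all genes called under these settings and DESeq2 are not given here, so the counts of listed genes under them cannot be read against a background.

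With the replicate number as a block, 2 of the 6 were called at D6 (Map2, Dcx) and 1 (Elavl4) from D0 to D6, where Dcx was lost (adjusted p = 0.074, edgeR) and the numbers were not taken to pair the libraries, and 2 listed genes at D6. The block changed no other call of the 6. No result changed direction. The cause of these changes was not tested.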
